A study of Mus musculus with 4 samples.

Results

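The Hox genes, which encode homeodomain transcription factors that mark position along the body axis, were followed library by library in fibroblasts isolated from 4T1 mammary tumours of mice. Members were chosen by name alone: protein-coding genes whose GENCODE M21 symbol is Hox, a cluster letter from a to d and a number. This gave 32 genes among the 22456 of the deposited table, out of 39 such genes in the annotation. Hoxa13, Hoxb13, Hoxc12, Hoxd10, Hoxd11, Hoxd12 and Hoxd13 were not analysed here. The genes were taken up with their values already known, so the differences between libraries are given as a description, with no test of their own.

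The study compared GSK with DMSO. In the GSK group (2 libraries) the injected cancer cells had been kept for 5 days in 5 µM GSK269962A, a ROCK inhibitor, and in the DMSO group (2 libraries) for 5 days in the vehicle DMSO. The compound was applied to the cancer cells before injection, not to the fibroblasts. Both groups came from 4T1 tumours, a mammary carcinoma line of Balb/c origin, grown in Balb/cAnN mice for 8 days after injection into a fat pad. The fibroblast fraction of both groups is what remained after bead depletion of cells positive for CD45, CD31, CD326 or human CD2, repeated on a fresh column. The labels do not name the fat pad, say if tumours were pooled or tie each library to its own mouse; p-values therefore describe the spread of these 4 libraries, which may be technical. Values are the normalised expression that the authors deposited in log2 form, so a difference of 1 is a doubling. Read depth is unknown, and how the log2 values were made is not given, so differences of weakly expressed genes may be understated.

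In mammals the Hox genes lie in 4 clusters, and genes at the same place in each cluster share a paralogue number. Low numbers are expressed from the hindbrain and neck downwards, middle numbers from the thorax, and high numbers from the lumbar region, the tail and the distal limb. Adult fibroblasts keep much of the Hox pattern of the place they came from, partly through Polycomb and Trithorax chromatin regulators, so the pattern is read as a sign of body position. Hox6, Hox9 and related genes also act in mammary gland development.

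One library stands apart in these genes and has to be named before the results. GSK library 1 held less of several Hox9, Hox10 and Hox11 genes than the other 3 libraries, so each result below is given with that library and, where it matters, without it. The 4 libraries otherwise had the same scale, with medians over all genes of 6.15 to 6.16. The fibroblast label was checked against its markers: all 14 of the fibroblast list passed the filter on low values, Col1a1 was highest at 20.51, and the list's summed level lay between 21.74 and 21.85 in the 4 libraries. Markers of depleted cells were low or mixed. Pecam1, which encodes CD31, and Epcam, which encodes CD326, were below the filter, while Ptprc, which encodes CD45, passed with a mean of 3.81. Of 9 endothelial markers 5 passed, led by Tek at 7.64 and Kdr at 5.13, as did 4 of 12 epithelial markers, led by Krt19 at 8.82, and 7 of 12 leukocyte markers, led by Cd3e at 8.62 and Csf1r at 8.28. In bulk RNA, fewer cells of a type and less RNA per cell cannot be told apart.

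The fibroblasts expressed most of the listed Hox genes. For their exon length Hoxc6, Hoxc8 and Hoxc10 were highest, and Hoxb2 came next. A mean of at least 3.32, which is log2 of 10, was asked of a gene before it was tested; 26 of the 32 members passed, as did 14548 of all genes. They were 8 of 10 listed Hoxa genes on chromosome 6, 8 of 9 Hoxb genes on chromosome 11, 7 of 8 Hoxc genes on chromosome 15 and 3 of 5 Hoxd genes on chromosome 2. The 3 just above the filter were Hoxd9 with a mean of 3.90, Hoxa2 with 4.79 and Hoxd4 with 5.16. The 3 just below were Hoxd3 with 2.37, Hoxa6 with 2.35 and Hoxa11 with 2.05, and Hoxc13, Hoxb1 and Hoxd1 were near the lowest values of the table at -0.41, -0.99 and -0.99. Of the Hoxd3 exon length 53.1% is shared with the read-through gene Gm28230, which averaged 4.37, so the value of Hoxd3 is uncertain.

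To compare genes with each other, the log2 of the exon length in kb was subtracted from each value. On this per-kb scale Hoxc6, a thoracic and mammary gene, was highest with a mean of 8.19, followed by Hoxc8, a brachial and thoracic gene, at 8.09 and Hoxc10, a gene of the lumbar trunk and hindlimb, at 7.83. The strongest Hoxb genes per kb were Hoxb2 at 7.41, Hoxb7 at 7.04 and Hoxb4 at 6.43. The order of genes depends on the length used: without it the mean of Hoxb2 was 9.21, above that of Hoxc10 at 8.76. Of the Hoxd genes Hoxd8 led at 7.11, far above Hoxd4 at 3.60 and Hoxd9 at 2.80. The Hoxa cluster was flatter and lower, with Hoxa4 at 5.51, Hoxa5 at 5.07 and Hoxa10 at 4.96.

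**Figure D1:**
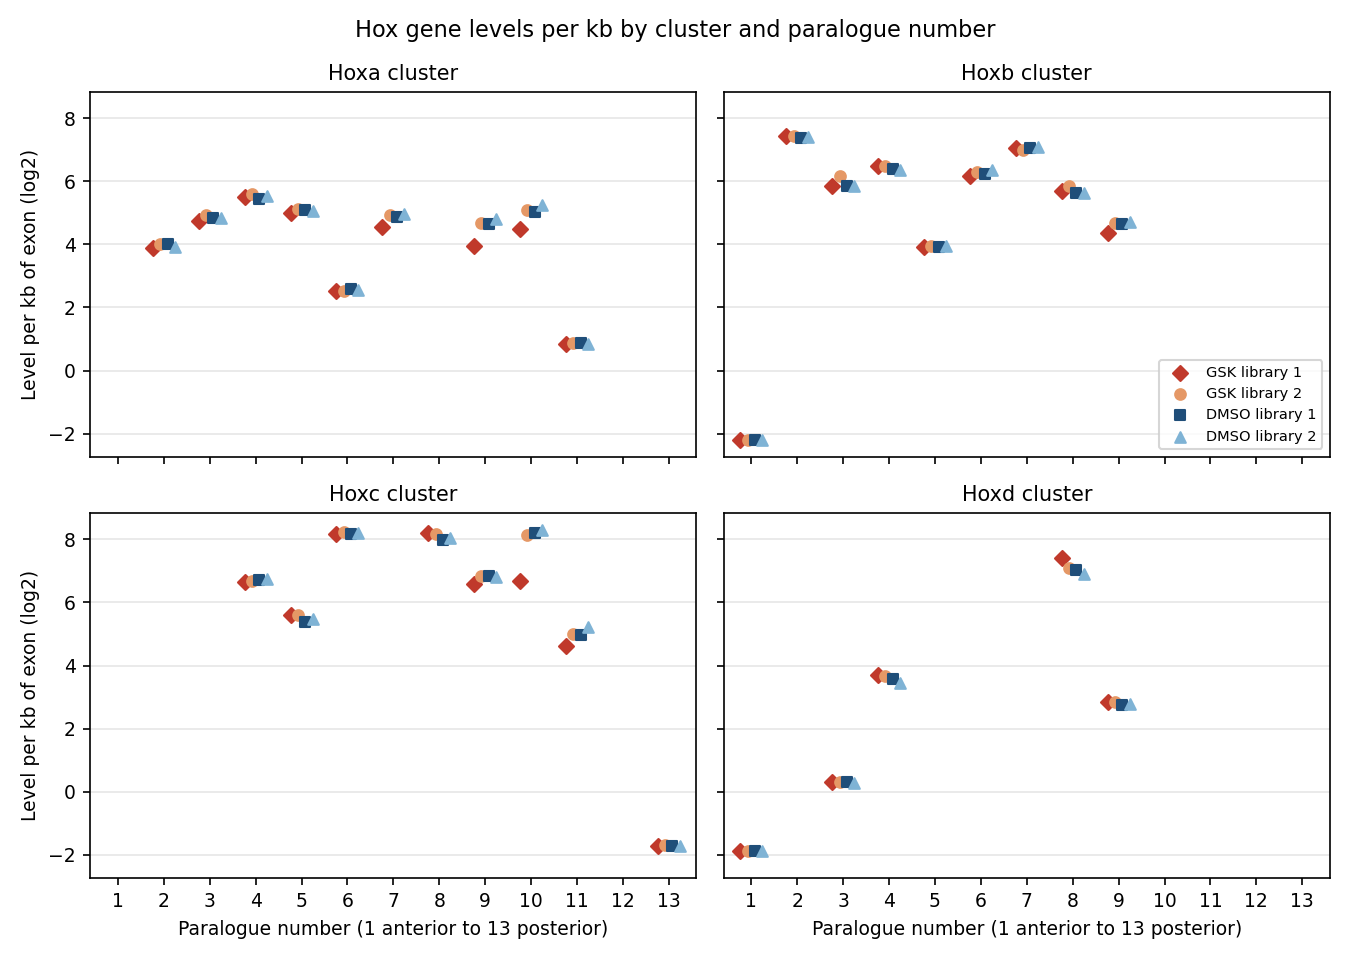
Level per kb of exon (log2) against paralogue number for the listed Hox genes reported, in 1 panel per cluster with a point for each library. Hoxc6, Hoxc8 and Hoxc10 are the highest genes, and the point of GSK library 1 for Hoxc10 lies at 6.68, below the points of the other 3 libraries.

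Several leading genes were nearly equal in all 4 libraries. On the deposited log2 scale Hoxc6 was 9.44 and 9.49 in the GSK libraries, against 9.45 and 9.45 in the DMSO libraries. Hoxb2, best known from the hindbrain, was 9.24 and 9.23 in GSK, against 9.16 and 9.21 in DMSO. Hoxb7 was 7.67 and 7.63 in GSK, against 7.67 and 7.70 in DMSO. In each of these 3 genes the 4 libraries lay within 0.08 of each other. The groups did not overlap for Hoxb2 and did for Hoxc6 and Hoxb7. Hoxb4 was 7.84 and 7.85 in GSK, against 7.74 and 7.71 in DMSO, and its groups did not overlap. The leading Hoxa genes Hoxa4, at 6.17 and 6.25 in GSK against 6.11 and 6.20 in DMSO, and Hoxa5, at 5.91 and 6.04 in GSK against 6.0 and 5.97 in DMSO, overlapped between groups. The genes just under the filter were Hoxd3 at 2.38 and 2.39 in GSK against 2.38 and 2.34 in DMSO, Hoxa6 at 2.33 and 2.34 in GSK against 2.39 and 2.37 in DMSO, and Hoxa11 at 2.03 and 2.06 in GSK against 2.07 and 2.05 in DMSO.

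Among the leading genes Hoxc10 differed most between libraries. It was 7.62 and 9.07 in the GSK libraries, against 9.12 and 9.23 in the DMSO libraries. GSK library 2 thus sat with the DMSO libraries and GSK library 1 alone was low, at 0.348 of the mean of the other 3, a 2.87-fold difference. Its log2 value was 1.52 below the other 3 (-1.52), and of the 14548 genes tested none was further below in that library. Within the order of Hox levels per kb, Hoxc10 ranked 6 in GSK library 1 and 3 in GSK library 2, against 1 in both DMSO libraries. The annotation places it at chr15:102966796-102971893 on the plus strand (GRCm38), and its exons share 166 bases, 8.7% of their length, with those of Hoxc5.

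Hoxa9 and Hoxa10, neighbours in the posterior part of the Hoxa cluster with roles in the limb, the urogenital tract and lumbar vertebrae, were also lowest in GSK library 1. Hoxa9 was 6.44 and 7.14 in GSK, against 7.13 and 7.27 in DMSO. Hoxa10 was 6.21 and 6.79 in GSK, against 6.72 and 6.96 in DMSO. In both genes GSK library 1 was lowest, GSK library 2 lay between the DMSO libraries, and the groups overlapped. Taken by library number, GSK was below DMSO at each number in both genes. The labels do not say whether the numbers pair the libraries. GSK library 1 was below the mean of the other 3 by 0.75 for Hoxa9 (-0.75, the 5th lowest of all tested genes) and by 0.62 for Hoxa10 (-0.62, the 11th lowest). Their promoters, from RefSeq on GRCm38.p6 and running from 250 bases before to 50 after the start, are shown because these genes moved together, with that of Hoxd8, which moved the other way. CpG dinucleotides are in capitals, since Hox clusters are known for CpG-rich DNA bound by Polycomb complexes.

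Hoxa9, chr6:52227321-52227620, minus strand: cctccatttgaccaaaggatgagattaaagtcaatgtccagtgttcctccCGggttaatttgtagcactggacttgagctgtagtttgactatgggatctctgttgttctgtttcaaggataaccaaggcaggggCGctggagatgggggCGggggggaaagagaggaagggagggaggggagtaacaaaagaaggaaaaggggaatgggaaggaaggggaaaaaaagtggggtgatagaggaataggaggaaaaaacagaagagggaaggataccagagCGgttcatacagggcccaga
Hoxa10, chr6:52234890-52235189, minus strand, 1 of 2 listed starts: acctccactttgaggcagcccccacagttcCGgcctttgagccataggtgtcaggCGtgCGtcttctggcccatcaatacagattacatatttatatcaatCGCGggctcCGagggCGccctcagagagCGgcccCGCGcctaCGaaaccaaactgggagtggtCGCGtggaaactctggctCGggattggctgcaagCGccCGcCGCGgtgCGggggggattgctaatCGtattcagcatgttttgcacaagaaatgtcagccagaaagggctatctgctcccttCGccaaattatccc
Hoxd8, chr2:74704365-74704664, plus strand: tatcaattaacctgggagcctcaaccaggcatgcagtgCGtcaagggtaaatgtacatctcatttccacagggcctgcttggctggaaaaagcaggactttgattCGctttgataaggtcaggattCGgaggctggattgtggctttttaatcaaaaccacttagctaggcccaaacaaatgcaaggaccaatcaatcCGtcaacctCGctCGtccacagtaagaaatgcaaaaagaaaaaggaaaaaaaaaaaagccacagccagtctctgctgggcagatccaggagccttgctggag

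The Hoxa9 window holds 4 CpGs, that of Hoxd8 holds 6, and the windows at the 2 listed Hoxa10 starts hold 21 (the one shown) and 12. Whether CpG count goes with the library differences was not tested. The median was 13.5 over the 18 promoter entries, belonging to 17 of the 32 listed Hox genes, and 7.0 over all 32851 promoters. A site for Cdx proteins, the caudal homeodomain factors upstream of Hox genes, was searched as CCATAAA on both strands; it was in 2.75% of all promoters and in 1 Hox entry, Hoxd4, where it occurred 2 times, capitalised here as its reverse complement. The Pbx-Hox site TGATTNAT was in 3.22% of all promoters and in 1 Hox entry, Hoxa2. The homeodomain core TAATTA was in 5.29% of all promoters and in 0 Hox entries. These are matches of letters in these windows only.

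Hoxd4, chr2:74721728-74722027, plus strand: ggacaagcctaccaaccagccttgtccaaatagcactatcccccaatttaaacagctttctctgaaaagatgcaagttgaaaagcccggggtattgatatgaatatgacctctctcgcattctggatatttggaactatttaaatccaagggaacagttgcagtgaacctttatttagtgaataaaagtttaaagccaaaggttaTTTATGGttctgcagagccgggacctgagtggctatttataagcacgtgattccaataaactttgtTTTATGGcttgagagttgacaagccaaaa

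GSK library 1 was also lowest, by smaller amounts, in Hoxc11, Hoxb9 and Hoxc9. Hoxc11 was 5.65 and 6.02 in GSK, against 5.97 and 6.25 in DMSO. Hoxb9, which with Hoxa9 and Hoxd9 acts in the mammary gland, was 5.73 and 6.03 in GSK, against 6.01 and 6.07 in DMSO. Hoxc9, a thoracic gene, was 7.85 and 8.13 in GSK, against 8.11 and 8.09 in DMSO. The distance of GSK library 1 from the mean of the other 3 was 0.43 for Hoxc11 (-0.43), 0.30 for Hoxb9 (-0.30) and 0.26 for Hoxc9 (-0.26), each time below it, and the groups overlapped. Hoxa7, a thoracic gene next to Hoxa9, was lower by 0.35 (-0.35), with 6.09 and 6.45 in GSK against 6.38 and 6.48 in DMSO. Taken by library number, GSK was below DMSO at each number for Hoxc11, Hoxb9 and Hoxa7, and only at number 1 for Hoxc9. Hoxd9 was not lowest in GSK library 1: it was 3.95 and 3.93 in GSK, against 3.85 and 3.87 in DMSO.

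Hoxd8 and Hoxc8 ran the other way. Hoxd8 was 8.87 and 8.55 in GSK, against 8.48 and 8.35 in DMSO, with GSK library 1 higher than the mean of the other 3 by 0.41. Hoxc8 was 9.70 and 9.66 in GSK, against 9.47 and 9.53 in DMSO. Neither gene's groups overlapped, but GSK library 1 stood apart from GSK library 2 for Hoxd8 and not for Hoxc8.

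**Figure D2:**
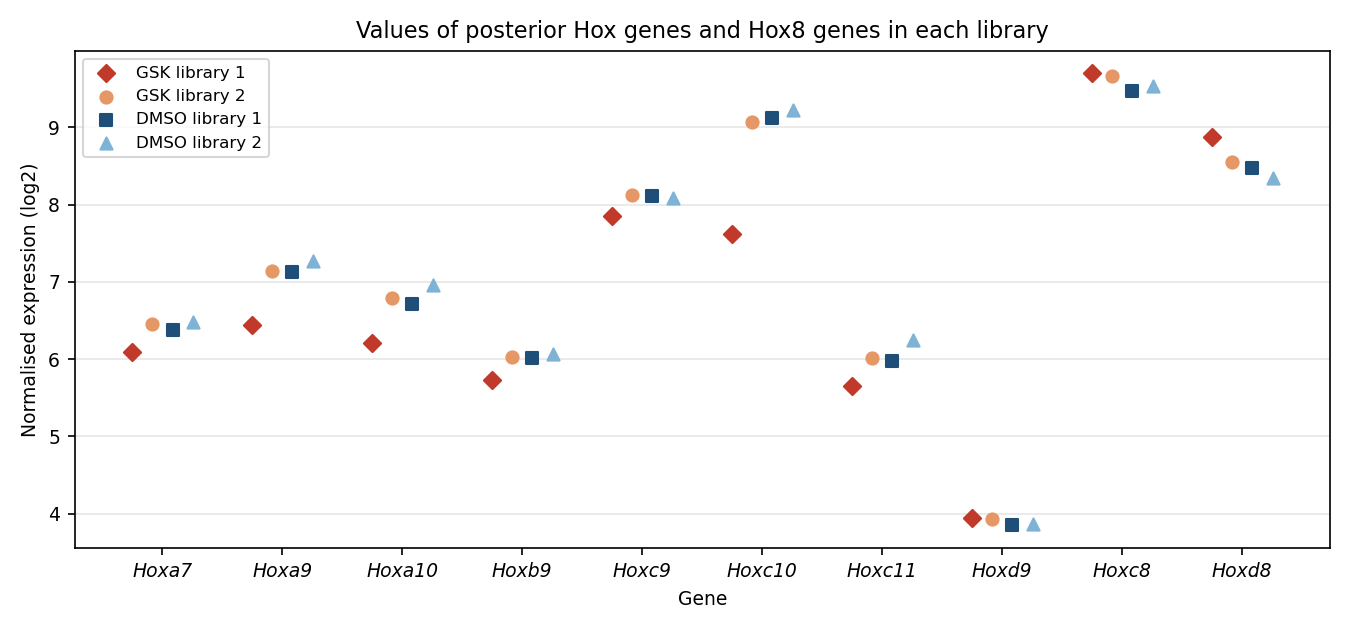
Normalised expression (log2) of posterior Hox genes and of Hox8 genes, with a point for each of the 4 libraries. GSK library 1 lies lowest for Hoxc10 at 7.62, Hoxa9 at 6.44 and Hoxa10 at 6.21, and highest for Hoxd8 at 8.87.

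Counted over the tested members, 7 of 26 (26.9%) were at least 0.25 lower in GSK library 1 than the mean of the other 3, against 1.22% of all tested genes; they are Hoxa7, Hoxa9, Hoxa10, Hoxb9, Hoxc9, Hoxc10 and Hoxc11. The member at least 0.25 higher was Hoxd8 (1 of 26, against 1.13% of all tested genes). The size of 0.25 was chosen after the values were seen. GSK library 2 had 0 members that far below (2.35% of all genes) and 2 that far above, Hoxb3 and Hoxc10 (1.71%). DMSO library 1 had 0 below (1.89%) and 1 above, Hoxc10 (2.51%). DMSO library 2 had 1 below, Hoxd8 (0.571%), and 4 above, Hoxa9, Hoxa10, Hoxc10 and Hoxc11 (0.667%). In these last 3 libraries the mean they are set against contains GSK library 1. GSK library 1 was the lowest of the 4 libraries for 15 of 26 members, against 22.8% of all tested genes, and the highest for 5 of 26, against 22.9%. GSK library 2 was the lowest for 1 of 26, against 28.3%, and the highest for 11 of 26, against 27.5%. DMSO library 1 was the lowest for 5 of 26, against 27.4%, and the highest for 1 of 26, against 28.1%. DMSO library 2 was the lowest for 5 of 26 and the highest for 9 of 26, against 21.5% of all tested genes in each case.

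By paralogue number, the median deviation of GSK library 1 was -0.43 for the 7 tested paralogues 9 to 11, -0.00 for the 7 of paralogues 6 to 8 and -0.04 for the 12 of paralogues 1 to 5. Across the 26 members Spearman's rho between paralogue number and deviation was -0.36 in GSK library 1 and 0.20 in GSK library 2, and 0.31 and 0.48 in DMSO libraries 1 and 2. Without Hoxc10 (25 genes) it was -0.28 and 0.11 in the GSK libraries, and 0.23 and 0.41 in the DMSO libraries. Within the Hoxa cluster (8 genes) rho was -0.71 and 0.86 in GSK libraries 1 and 2, and 0.50 and 0.81 in DMSO libraries 1 and 2. Within Hoxb (8 genes) it was -0.48 and 0.02 in GSK, and 0.57 and 0.62 in DMSO, and within Hoxc (7 genes) -0.64 and 0.50 in GSK, and 0.43 and 0.64 in DMSO. The sign was negative in GSK library 1 and positive in the other 3 libraries, whose deviations are set against means that contain GSK library 1. These are descriptions: genes of a cluster are neighbours, all are read in the same library, and the 4 deviations of a gene are built from the same 4 values.

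**Figure D3:**
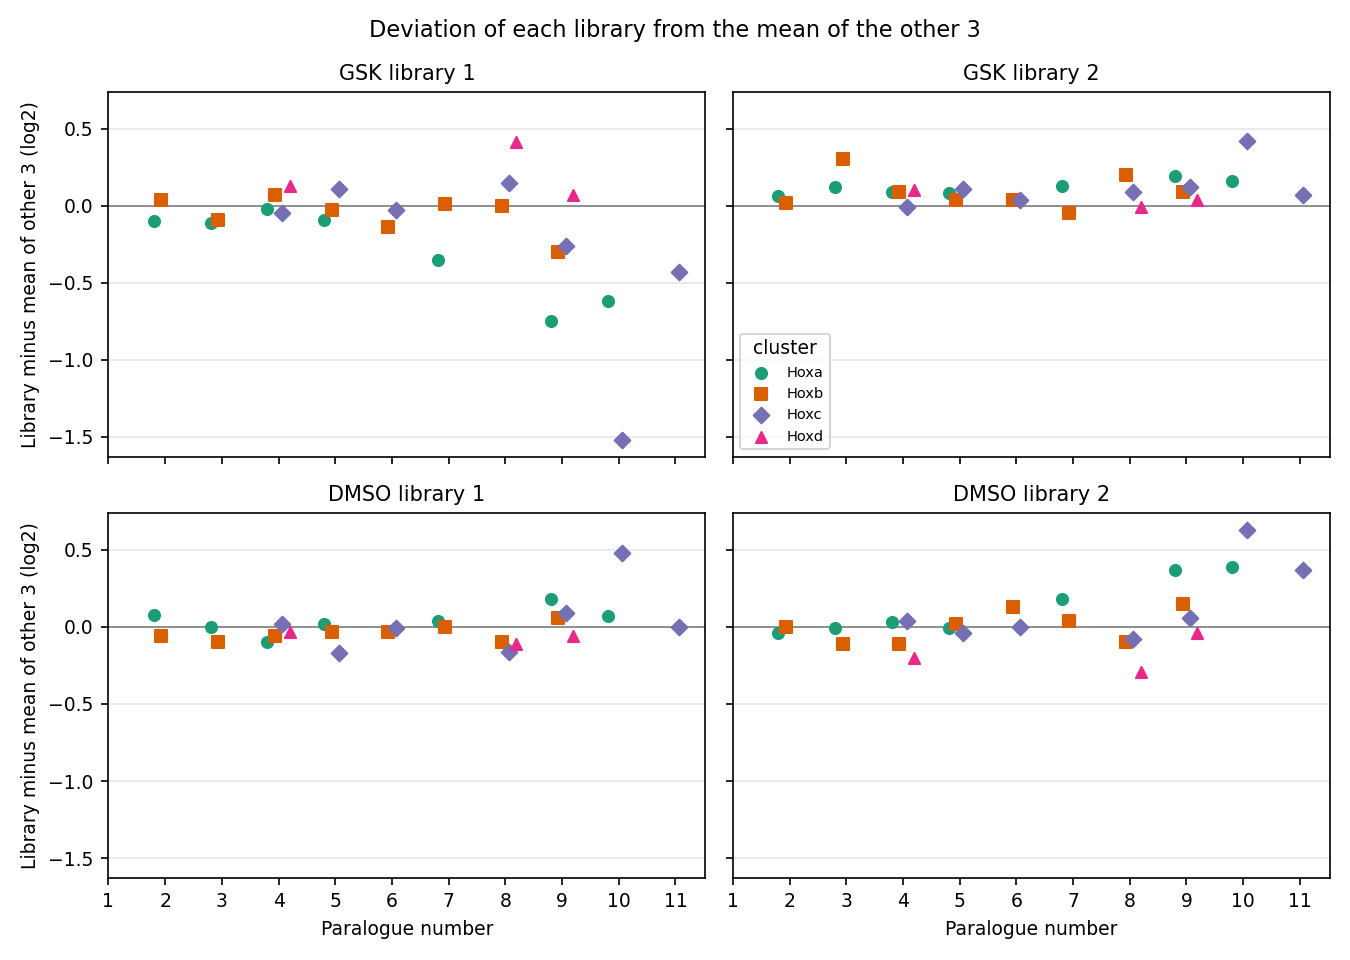
Deviation of each library from the mean of the other 3 (log2) against paralogue number for the tested Hox genes reported, in 1 panel per library with clusters by colour and marker. In GSK library 1 most genes of paralogues 9 to 11 lie below 0, down to -1.52 for Hoxc10, while the genes of paralogues 2 to 6 lie close to 0.

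Ratios between Hox genes inside a library, which no scaling of that library can change, were compared as well. Hoxc10 minus Hoxc9, both in the same cluster, was -0.23 and 0.94 in the GSK libraries, against 1.0 and 1.14 in the DMSO libraries. Hoxc10 minus Hoxc8 was -2.08 and -0.59 in GSK, against -0.35 and -0.30 in DMSO. Hoxa9 minus Hoxa3, an anterior gene of pharyngeal development, was -0.90 and -0.38 in GSK, against -0.29 and -0.14 in DMSO. In all 3 ratios GSK library 1 was lowest, and GSK library 2 was below both DMSO libraries by a smaller amount.

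The summed Hox level divided accordingly. Summed on the linear per-kb scale, paralogues 9 to 13 made up 14.8% and 23.7% of the Hox level in the GSK libraries, against 24.9% and 26% in the DMSO libraries. The means were 19.2% ± 6.28 in GSK and 25.5% ± 0.743 in DMSO (SD, n = 2 each); with 2 against 2 an exact permutation test cannot go below p = 0.333, and none was run. Paralogues 6 to 8 held 52.7% and 46.1% in GSK, against 45.5% and 44.8% in DMSO. Paralogues 1 to 5 held 32.5% and 30.2% in GSK, against 29.5% and 29.2% in DMSO. Hoxc10 by itself was 5.23% and 12.7% of the Hox level in GSK, against 13.8% and 14.5% in DMSO. With Hoxc10 left out, paralogues 9 to 13 were still lowest in GSK library 1, at 10.1% and 12.5% in GSK against 13% and 13.5% in DMSO. By cluster, the Hoxd share was 9.78% and 7.17% in GSK, against 7.13% and 6.35% in DMSO, and the Hoxc share was 48.5% and 52.6% in GSK, against 53.1% and 53.8% in DMSO.

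**Figure D4:**
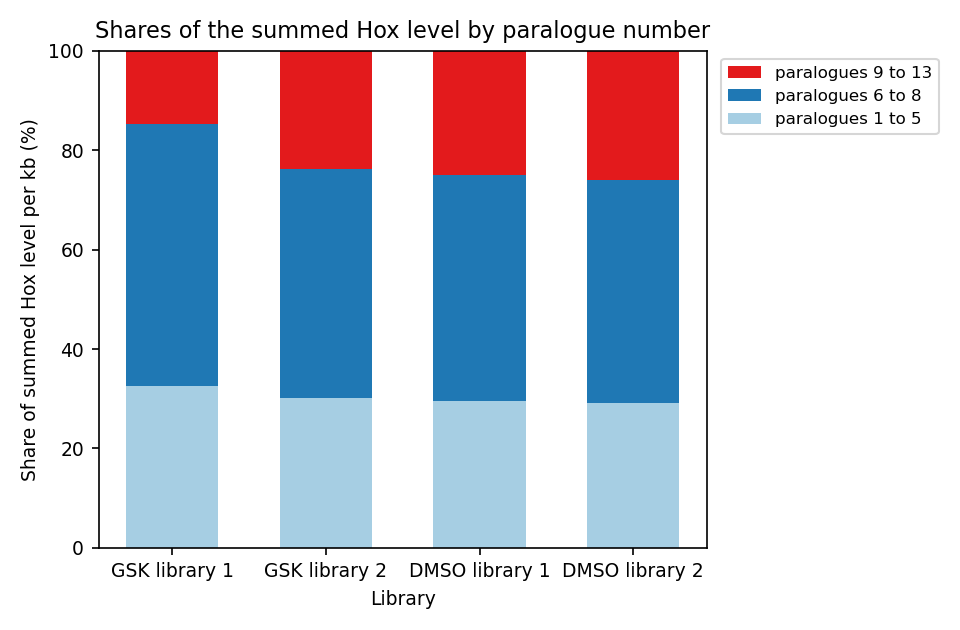
Share (%) of the summed linear Hox level per kb held by paralogues 1 to 5, 6 to 8 and 9 to 13 in each library, as stacked bars that reach 100. The share of paralogues 9 to 13 is 14.8% in GSK library 1 and between 23.7% and 26% in the other 3 libraries.

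As a group the Hox genes varied more between libraries than other genes did. The median range over the 4 libraries was 0.202 for the 26 members and 0.113 for all tested genes. A range above 0.5 was found for 5 of 26 members, against 2.57% of all tested genes. Without GSK library 1 the median range was 0.112 for the Hox genes and 0.0919 for all genes, and that of the 7 tested paralogues 9 to 11 was 0.139 in place of 0.603. For Hoxc10 the range was 1.61 with GSK library 1 and 0.16 without it.

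The comparison of treatments did not call any Hox gene. In limma, with Benjamini-Hochberg adjustment over all 14548 genes, 0 of 26 members passed an adjusted p of 0.05, against 0.282% of all tested genes (41 genes, with 22 higher in GSK, 0.151%, and 19 lower, 0.131%). At an unadjusted p under 0.05 there were 7 members, Hoxb4, Hoxb8, Hoxc5, Hoxc8, Hoxd4, Hoxd8 and Hoxd9, all higher in GSK (26.9%, against 7.88% of all tested genes higher and 8.13% lower). The median difference, GSK minus DMSO, was 0.01 for the members and -0.00 for all tested genes; 14 were positive and 12 negative, and they ran from -0.83 to 0.30. Groups did not overlap in 11 of 26 members, against 48.6% of all tested genes: 9 were higher in GSK (24.1% of all genes), namely Hoxb2, Hoxb3, Hoxb4, Hoxb8, Hoxc5, Hoxc8, Hoxd4, Hoxd8 and Hoxd9, and 2 were lower, Hoxc4 and Hoxc10 (24.5%).

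The 5 smallest p-values belonged to genes that were higher in GSK, with differences of 0.08 to 0.30. Hoxc8 averaged 9.68 ± 0.03 in GSK and 9.50 ± 0.04 in DMSO (SD, n = 2 each), a difference of 0.18 ± 0.05 (SE; limma adjusted p = 0.146). Hoxd4, a gene of the cervical region, was 5.26 and 5.24 in GSK, against 5.14 and 5.01 in DMSO, a difference of 0.17 ± 0.05 (limma adjusted p = 0.164). Hoxd9 differed by 0.08 ± 0.02 (limma adjusted p = 0.172). Hoxc5 was 7.22 and 7.22 in GSK, against 7.01 and 7.11 in DMSO, a difference of 0.16 ± 0.05 (limma adjusted p = 0.209). Hoxd8 differed by 0.30 ± 0.11 (limma adjusted p = 0.251), and its GSK libraries lay 0.32 apart. All 4 libraries of these 5 genes fell in the order of their groups, with GSK above DMSO, but none passed the threshold. Of the Hoxd4 exon length 39.1% is shared with the read-through gene Gm28230, which differed by 0.01, so the value of Hoxd4 is uncertain.

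The largest differences had the largest errors. Hoxc10 averaged 8.34 ± 1.03 in GSK and 9.17 ± 0.08 in DMSO (SD, n = 2 each), a difference of -0.83 ± 0.42 (SE; limma adjusted p = 0.389). Without GSK library 1 the difference was -0.10, and without GSK library 2 it was -1.56, each with 1 GSK library left. Hoxa9 differed by -0.41 ± 0.21 (limma adjusted p = 0.391), by -0.06 without GSK library 1 and by -0.77 without GSK library 2. For both genes the size of the difference thus depended on which GSK library was in the fit. For Hoxd8 the difference was 0.14 without GSK library 1, while for Hoxc8 it was 0.15.

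**Figure D5:**
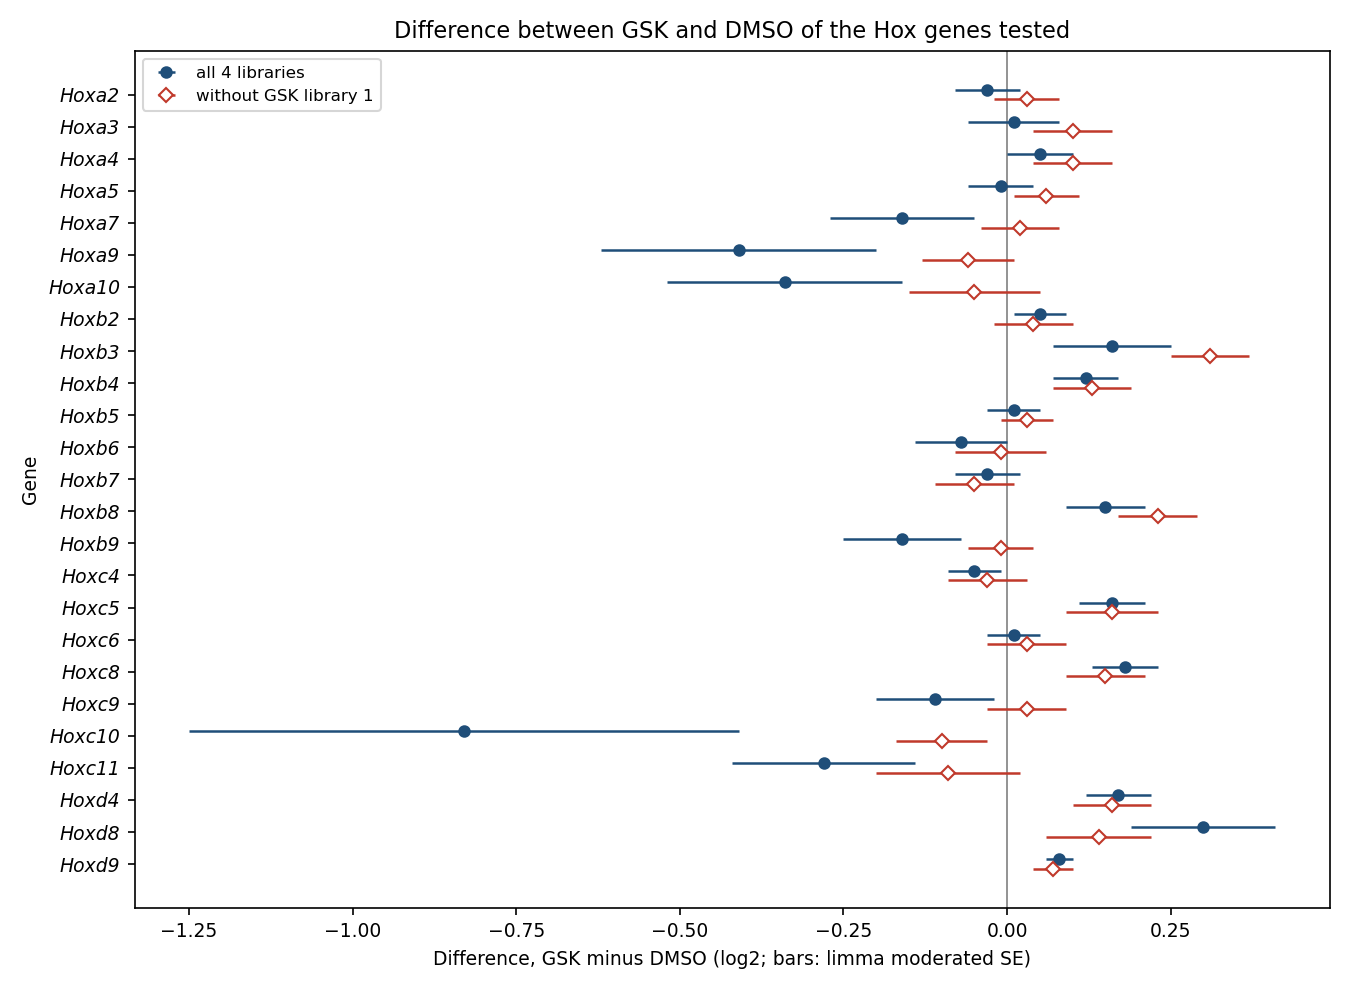
Difference between GSK and DMSO (log2, GSK minus DMSO) of the tested Hox genes reported, with bars for limma's standard error, from all 4 libraries (filled) and without GSK library 1 (open). Hoxc10 lies at -0.83 with all 4 libraries and at -0.10 without GSK library 1.

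Other genes of position were read beside the Hox genes, from lists chosen by function. None of the genes in these lists passed the limma threshold in either direction. Of the limb list, 4 of 7 genes passed the filter: Shox2, a gene of the proximal limb, was 9.21 and 9.90 in GSK, against 9.64 and 9.87 in DMSO, and Tbx5, which specifies the forelimb, was 5.25 and 5.40 in GSK, against 5.33 and 5.45 in DMSO. Pitx1, which specifies the hindlimb, was 5.76 and 6.25 in GSK, against 6.01 and 6.33 in DMSO, and Lmx1b, of the dorsal limb, was 4.74 and 4.87 in GSK, against 4.80 and 5.06 in DMSO. GSK library 1 was the lowest of the 4 libraries in all 4 genes, most for Shox2 at -0.59 from the mean of the other 3, and the list's summed level was 9.49 there against 9.87 to 10.12 in the other 3 libraries. DMSO library 1 was also below DMSO library 2 in each of these 4 genes. Tbx4, the other hindlimb factor, averaged 2.62 and was below the filter.

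As a list, body wall and dermis genes were not lowest in GSK library 1: their summed level was 14.38 and 14.35 in GSK, against 14.35 and 14.28 in DMSO. Of 15 such genes 14 passed the filter, with a median difference of 0.05 between groups. Prrx1, a mesenchymal factor, was highest with a mean of 13.37. Tbx3, which acts in limb and mammary placode formation, was 10.48 and 10.52 in GSK, against 9.99 and 10.13 in DMSO, a difference of 0.44 ± 0.06 (SE; limma adjusted p = 0.0543). Its relative Tbx2 differed by 0.19 ± 0.05 (limma adjusted p = 0.129) and the homeobox gene Msx1 by 0.23 ± 0.07 (limma adjusted p = 0.195). En1, a marker of ventral limb ectoderm and of a dorsal dermal fibroblast lineage, was 8.44 and 8.81 in GSK, against 8.61 and 8.72 in DMSO, with GSK library 1 lowest. The head list had 5 of 16 genes above the filter, led by Alx4 at 8.07, and the visceral list 5 of 14, led by Wt1 at 10.07, with Foxf1 differing by -0.13 ± 0.04 (limma adjusted p = 0.233).

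Regulators and partners of Hox genes had median differences near 0. Of 9 cofactors 8 passed the filter, with a median difference of 0.05. Pknox2, a Meis-related partner, was 8.87 and 8.90 in GSK, against 9.13 and 9.12 in DMSO, a difference of -0.24 ± 0.04 (SE; limma adjusted p = 0.0707). All 26 Polycomb genes passed the filter with a median difference of 0.00, Rybp having the smallest p with -0.15 ± 0.05 (limma adjusted p = 0.183). All 12 Trithorax and H3K27 demethylase genes passed too: Kdm6b, a demethylase of the Polycomb mark, was 11.60 and 11.55 in GSK, against 11.92 and 11.87 in DMSO, a difference of -0.32 ± 0.05 (limma adjusted p = 0.0578), and the methyltransferase gene Kmt2a differed by 0.19 ± 0.04 (limma adjusted p = 0.103). In the summed level of these 3 lists GSK library 1 lay at most 0.01 outside the other 3 libraries.

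Retinoic acid activates anterior Hox genes in the embryo, and 17 of 22 genes of its pathway and of caudal inputs passed the filter, with a median difference of 0.02. The retinoic acid binding protein gene Crabp1 was 10.86 and 10.92 in GSK, against 10.68 and 10.59 in DMSO, a difference of 0.26 ± 0.05 (SE; limma adjusted p = 0.0894). Of 17 non-coding RNA genes of the clusters 10 were in the table and 5 passed the filter. Hoxb3os, antisense to Hoxb2 and Hoxb3, was 7.08 and 6.95 in GSK, against 6.89 and 7.04 in DMSO. Hotairm1, of the Hoxa cluster, was 5.88 and 5.89 in GSK, against 5.89 and 5.87 in DMSO. The strand used in counting is not given in the sources used here, and 52.9% of the Hoxb3 exon length lies antisense to Hoxb3os, so these 2 genes cannot be told apart with certainty. Of the genes flanking the clusters 9 of 14 passed the filter, with a median difference of -0.03, and Cbx5 beside the Hoxc cluster differed by 0.09 ± 0.04 (limma adjusted p = 0.333).

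Markers of other cell types were set beside the posterior Hox genes to see whether they moved in the same library. Over 12 marker lists GSK library 1 lay outside the other 3 libraries in 4, 2 below and 2 above, by -0.09 to 0.04 in summed log2 level. The same figure ran from -0.22 to 0.03 for GSK library 2, from -0.28 to 0.25 for DMSO library 1 and from -0.01 to 0.05 for DMSO library 2. The fibroblast sum was 21.74 in GSK library 1 and 21.82 in GSK library 2, against 21.85 and 21.84 in the DMSO libraries. The pericyte and smooth muscle sum was 14.39 and 14.39 in GSK, against 13.98 and 14.26 in DMSO. That of skeletal muscle was 6.66 and 6.63 in GSK, against 6.65 and 6.65 in DMSO, and that of adipocytes 10.09 and 10.12 in GSK, against 10.03 and 10.02 in DMSO. Such sums follow their highest genes, so single markers were counted too. Of 58 markers that passed the filter, 1 was at least 0.25 lower in GSK library 1 than the mean of the other 3, the collagen gene Col3a1 at -0.26, and 2 were at least 0.25 higher, the pericyte genes Rgs5 and Cspg4 at 0.26 each. The same counts were 4 lower and 3 higher in GSK library 2, 8 lower and 4 higher in DMSO library 1, and 0 lower and 1 higher in DMSO library 2. Rgs5 was 12.72 and 12.58 in GSK, against 12.26 and 12.51 in DMSO. The part of these cell types in the Hox differences was not tested. Whether the fibroblasts of the 4 libraries came from different body positions was not tested, and the labels give no position for any of them.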

How the data were processed

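RNA of the fibroblast fraction was sequenced in 4 libraries. The authors deposited normalised values on a log2 scale, 1 column per library; no column was left unused. Tools named in the submitters' processing notes, with no role stated, are Bowtie2, RSEM 1.2.29 and DESeq2 1.12.4; the builds are GRCh38 and mm10. How the values were transformed and which annotation was used are not given in the sources used here. Their range, -1.035 to 20.58, was the ground for reading them as log2. No gene had equal values in both libraries of a group.

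Symbols, exon lengths and positions came from GENCODE M21 (GRCm38, mm10), where 22335 of 22456 identifiers matched. A mean of 3.32 (log2 of 10) or more was required, and the fit used limma 3.58.1 (R 4.3.3) without a pseudocount, with group as the term and a variance prior following the mean; p-values are two-sided with Benjamini-Hochberg adjustment over all genes and a threshold of 0.05. The procedure was tested on simulated data. SE is limma's moderated standard error and SD that of a group's 2 libraries.

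Members, lists and tests were chosen with earlier results of these data known. Counts cover every Hox gene listed; the values of some genes are not reported here. Library values were written out for the 3 highest per-kb genes of each cluster, the 5 smallest p, the 3 widest ranges and the 3 on each side of the filter. Of other lists, up to 3 genes of smallest p and the highest marker were eligible. Hoxa7, Hoxb9, Hoxc9, Hoxc11, the limb genes, En1, Hotairm1 and genes given by mean alone were added after their values were seen. Alternatives were other filters and scalings, no variance trend, a replicate block, other gene lengths and each library left out.

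Transcripts were aligned to all transcripts with blastn 2.17.0: 0 Hox genes matched a gene they do not overlap at 98% identity over 200 bases, and 10 matched an overlapping gene.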

Additional observations from a re-analysis of the deposited data

How the results depend on the processing

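Over all genes 41 were called. The count was 1 with no filter, 23 after quantile normalisation, 126 after median centring, 11 without the variance trend, and 7 to 194 when 1 library was left out (70 without GSK library 1, 7 without DMSO library 1, 194 without DMSO library 2). Leaving out 1 library gave 0 to 2 called Hox genes, the 2 being Hoxc10 and Hoxa9 without GSK library 2; a group of 1 library is then assumed to vary like the other. The causes were not tested.

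The labels do not say whether the replicate numbers pair the samples, and only 2 pairs exist. Deviations of same-numbered libraries from their group means correlated positively, at 0.428 over 14548 genes. The reason was not tested. With the replicate number as a block, 1374 of 14548 genes and 5 of 26 Hox genes were called. These 5 were Hoxa10, Hoxc11, Hoxc8, Hoxd8 and Hoxd4 (limma, smallest adjusted p = 0.00882).

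The share of paralogues 9 to 13 in DMSO libraries 1 and 2 was 20.3% and 21.2% with the longest coding transcript as length and 22.4% and 23.5% with no length correction. Without Hoxc10, a choice made after seeing the data, it was 12.5% in GSK library 2 and 13% and 13.5% in the DMSO libraries; GSK library 1 was lowest under each alternative. The median Hox range of 0.202 was 0.112 to 0.174 with 1 library left out, also chosen after seeing the data (0.112 without GSK library 1, 0.134 without GSK library 2).

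Of the differences between groups, those of 7 Hox genes changed sign when 1 library was left out, and ran as follows: Hoxa2 -0.09 to 0.03, Hoxa3 -0.08 to 0.10, Hoxa5 -0.07 to 0.06, Hoxa7 -0.34 to 0.02, Hoxb5 -0.02 to 0.03, Hoxc6 -0.01 to 0.03 and Hoxc9 -0.25 to 0.03. Depth and the number of libraries limit what can be seen in the low genes.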
